A study of Sus scrofa with 8 samples.

Results

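The miRNAs of the miR-192, miR-194 and miR-215 group and of the miR-200 family are miRNAs enriched in epithelial cells, and their levels were compared between young and old porcine liver. A miRNA name was taken as a member when, without the pig prefix ssc, it was miR-192, miR-194, miR-194a, miR-194b, miR-215, miR-200a, miR-200b, miR-200c, miR-141 or miR-429, with or without an arm suffix. This gave 14 of the 888 listed miRNA names. Of these, 10 name the abundant strand of a hairpin and 4 name the strand opposite to it, which is usually degraded.

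Small RNA sequencing and RNA sequencing were performed on the livers of 2 young and 2 old healthy female Yana pigs (also written Yanan), an indigenous Chinese breed, with 1 library of each kind per sow. The young libraries are called YL1 and YL2 and the old ones OL1 and OL2, by their replicate number, and where a pair of values is given for YL or OL, replicate 1 comes first. The young sows were 180 days old and had not given birth. The old sows were culled breeding animals aged 8 years, so age and reproductive history cannot be told apart. The 4 sows had no recent ancestor in common, and no treatment or genotype is named for them. In the small RNA table the values of each library were whole reads times 1 factor. The 4 libraries held between 11661943 and 14139461 recovered reads over all names, or between 7912769 and 9539468 once 8 names that repeat the reads of another name were counted once. The RNA-seq libraries held between 22482241 and 37555696 reads assigned to mRNAs. Replicates are separate animals, so the spread given is that between 2 sows. A read is a PCR copy without a molecular identifier, and the intervals on shares cover counting error only. Among the small RNA libraries OL2 stood apart from the other 3 for many names, so fold changes are given with and without it.

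A miRNA acts mostly through its seed, a short stretch near its 5′ end that pairs with the 3′ untranslated regions of its target mRNAs. The genes of miR-192, miR-194 and miR-215 respond to p53, and their products are abundant in liver, intestine and kidney. miR-192 and miR-215 share a seed, and miR-194 has its own. The miR-200 family keeps cells epithelial by repressing ZEB1 and ZEB2, the transcriptional repressors of E-cadherin, and in liver it is richer in the biliary epithelium than in hepatocytes. Its members fall into 2 seed groups, with miR-200b, miR-200c and miR-429 in one and miR-200a and miR-141 in the other.

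The members covered a wide range of levels, as the plot of members by library shows in RPM, the reads of a name per 1000000 reads of all names counted once. By their mean deposited value, miR-194-5p ranked 3, ssc-miR-194a ranked 5 and ssc-miR-192 ranked 8 of the 888 names. The miR-200 family was far less abundant, and its highest member, miR-200b-3p, ranked 82. All 14 names were above 0 in all 4 libraries. The shallowest, miR-200a-5p, rested on 11 to 45 reads per library.

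**Figure D1:**
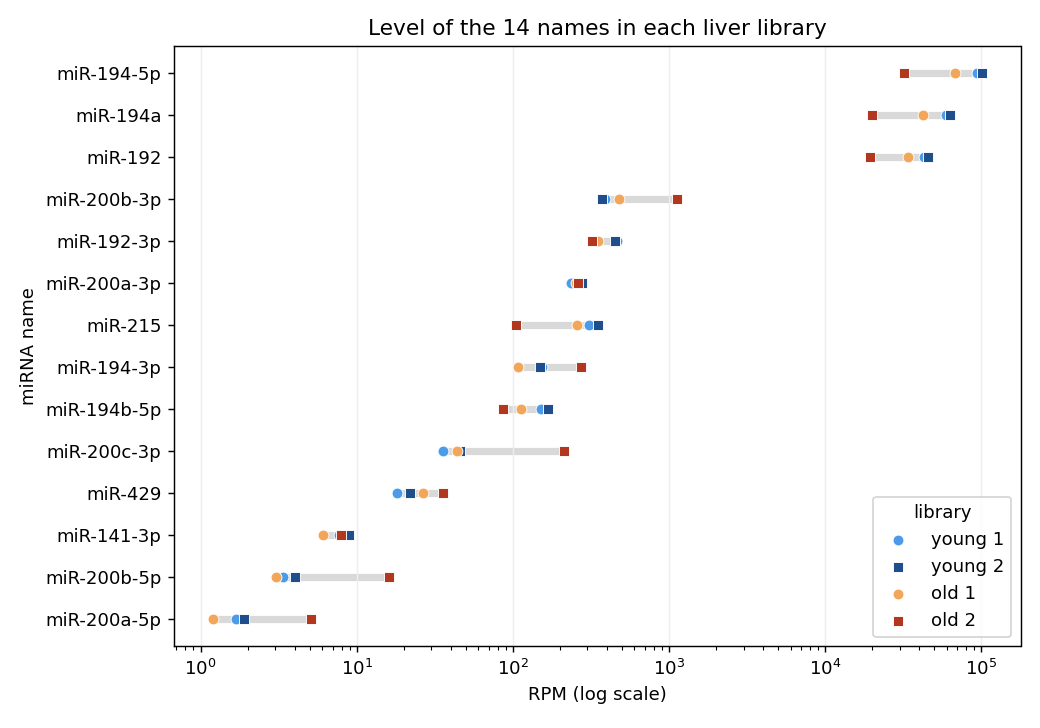
Level of each of the 14 names (vertical axis) in each of the 4 small RNA libraries, in RPM (log axis); points are single libraries and the grey bar spans their range. The abundant strands of miR-192, miR-194 and miR-215 are lowest in OL2, where miR-200b-3p and miR-200c-3p are highest.

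As a sum, miR-192, miR-194 and miR-215 made up 10.3% of the miRNA reads in YL1, 10.9% in YL2, 7.67% in OL1 and 3.93% in OL2. The miR-200 family made up 0.0684% and 0.0725% of the reads in YL and 0.0804% and 0.165% in OL. The first sum was lower in both old livers and the second was higher in both, and each old liver differed from the young mean to a different extent. The old to young ratio of the means in RPM was 0.547 for the first sum and 1.74 for the second. By an exact permutation test over the 4 libraries on the log2 RPM, two-sided, both gave p = 0.333, which is the smallest p that 2 against 2 can give. In bulk tissue, fewer cells of a type and less RNA per cell cannot be told apart.

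By seed group, miR-192 and miR-215 together took 4.34% and 4.61% of the reads in YL, 3.43% in OL1 and 1.93% in OL2. The miR-194 group took 5.92% and 6.32% in YL, 4.24% in OL1 and 1.995% in OL2. The miR-200b, miR-200c and miR-429 group took 0.0440% and 0.0441% in YL, 0.0546% in OL1 and 0.138% in OL2. These 3 groups did not overlap between ages on this scale. The miR-200a and miR-141 group overlapped, at 0.0243% and 0.0285% in YL and 0.0258% and 0.0270% in OL, and the difference of its means was 0.0033 on the log2 scale. The half-width of the 95% Wilson interval of these shares was at most 0.0170 percentage points. It was far below the spread between the old sows in the first 3 groups, and above it for miR-200a and miR-141, where the largest half-width was 0.00118 percentage points and the SD between the old sows 0.000798. On the deposited values the log2 differences, old minus young, were -0.70 ± 0.53 (pooled SD, n = 2 per group) for miR-192 and miR-215, -0.98 ± 0.63 for miR-194, 1.07 ± 0.77 for miR-200b, miR-200c and miR-429, and 0.10 ± 0.26 for miR-200a and miR-141. None of these could pass a threshold of 0.05, and the exact permutation p was 0.333 for the miR-194 and miR-200b groups, 0.667 for miR-192 and miR-215 and 1 for miR-200a and miR-141.

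**Figure D2:**
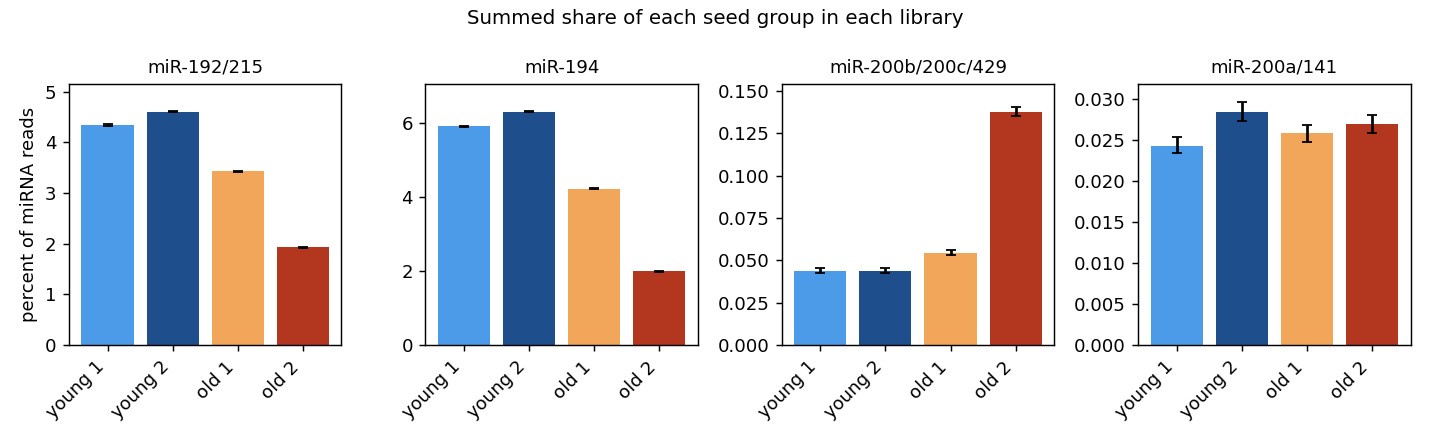
Percent of all recovered miRNA reads taken by each of the 4 seed groups (panels, each with its own vertical axis from 0) in each library; bars are single libraries and error bars are 95% Wilson intervals for counting error. The share of miR-192 with miR-215 and that of miR-194 step down from the young libraries to OL1 and again to OL2, the share of miR-200b, miR-200c and miR-429 is highest in OL2 at 0.138%, and that of miR-200a with miR-141 overlaps between ages.

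ssc-miR-192, a regulator of cell cycle and epithelial genes, gave 43124 and 45734 RPM in YL, 34063 in OL1 and 19234 in OL2. Both old livers were below both young livers on this scale, and OL2 stood at 0.433 of the young mean. On the deposited values OL1 lay above YL2, so the groups overlapped there. The log2 fold change was -0.70 ± 0.64 (SE, limma on log2(value + 1), n = 2 per group), with an adjusted p of 0.719. ssc-miR-215, which has the same seed, gave 308 and 351 RPM in YL, 257 in OL1 and 105 in OL2. It followed the order of miR-192, with a log2 fold change of -0.91 ± 0.68 and a limma adjusted p of 0.640. miR-215 made up 0.710%, 0.761%, 0.748% and 0.545% of the 2 names together in YL1, YL2, OL1 and OL2, so the group's share is that of miR-192.

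ssc-miR-194a, which is known to target N-cadherin and other mesenchymal genes, gave 59059 and 63008 RPM in YL, 42239 in OL1 and 19866 in OL2. The groups did not overlap on either scale, and OL2 held 0.325 of the young mean. The log2 fold change was -0.98 ± 0.66 and the limma adjusted p was 0.603. miR-194-5p, listed without the pig prefix, repeated the reads of ssc-miR-194a at 1.59 to 1.62 times its count in every library and is the same miRNA for these purposes, with a log2 fold change of -0.97. ssc-miR-194b-5p, the product of a second hairpin, gave 152 and 169 RPM in YL, 113 in OL1 and 86.5 in OL2. It was also lower in both old livers on both scales, with a log2 fold change of -0.60 ± 0.60 and a limma adjusted p of 0.740. These sequences are nearly identical, and how reads that match several names were counted is not given in the sources used here, so the split among the miR-194 names and between miR-192 and miR-215 is uncertain.

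The strands opposite to these did not all follow them. miR-192-3p gave 467 and 452 RPM in YL and 349 and 323 in OL, lower in both old livers on this scale, with a log2 fold change of -0.36 ± 0.61 on the deposited values, where the groups overlapped. miR-194-3p gave 153 and 150 RPM in YL, 108 in OL1 and 272 in OL2. The old livers stood on either side of the young ones, and the log2 fold change of 0.27 ± 0.70 became -0.40 without OL2.

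In the miR-200 family, miR-200b-3p was the most abundant member, with 387 and 373 RPM in YL, 476 in OL1 and 1130 in OL2. Both old livers were above both young livers on either scale, at 1.25 times and 2.98 times the young mean in RPM. On the deposited values OL1 lay only just above YL1, at 4987 against 4923. The log2 fold change was 1.04 ± 0.69, with a limma adjusted p of 0.60. miR-200c-3p, from the hairpin cluster it shares with miR-141, gave 35.4 and 46.0 RPM in YL, 43.6 in OL1 and 213 in OL2. Only OL2 stood apart here, at 5.22 times the young mean. The groups overlapped in RPM but not on the deposited values, where OL1 gave 457 against 451 in YL1. The log2 fold change of 1.35 ± 0.82 (limma adjusted p = 0.582) became 0.20 without OL2 and 2.49 without OL1.

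ssc-miR-429 gave 18.0 and 21.9 RPM in YL, 26.6 in OL1 and 35.7 in OL2. It was higher in both old livers on both scales, with a log2 fold change of 0.72 ± 0.60 and a limma adjusted p of 0.683, and it stayed between 0.49 and 0.95 whichever library was left out. miR-200a-3p, which is made from the same primary transcript as miR-200b and miR-429 in mammals, gave 236 and 276 RPM in YL and 252 and 262 in OL. Both of its old values lay between the young ones, and its log2 fold change of 0.10 ± 0.59 had the opposite sign under trimmed mean of M-values (TMM) scaling, at -0.10, and under median-ratio scaling, at -0.058. miR-200b, miR-200c and miR-429 are close in sequence, and their split is uncertain for the same reason as that of miR-194.

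The 3 members with a mean deposited value below 100 were miR-141-3p, miR-200b-5p and miR-200a-5p. miR-141-3p, which has the seed of miR-200a, rested on 56 to 73 reads and lay between 6.07 and 8.97 RPM, with overlapping groups. miR-200b-5p and miR-200a-5p, the strands opposite to miR-200b and miR-200a, ranged from 3.04 to 16.1 and from 1.19 to 5.09 RPM. Both were highest in OL2 and lowest in OL1, and their log2 fold changes of 1.003 ± 0.84 and 0.55 ± 0.78 changed sign without OL2.

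No member passed the call threshold, an adjusted p below 0.05 and a change of more than 1 on the log2 scale in either direction, in the limma fit across all 867 names above 0 in at least 2 libraries. No other name did either, so the share of names called was 0%, while 103 names and none of the members had an unadjusted p under 0.05. edgeR's exact test on the recovered reads called 26 names, DESeq2 called 43 and edgeR's quasi-likelihood test called none, with 0 members among them. An unadjusted p under 0.05 was found for 3 members and 115 of the 867 names in the exact test. In DESeq2 it was found for 5 members and 107 names, and in the quasi-likelihood test for 4 members and 122 names. The lowest adjusted p of a member was 0.582 in the main limma fit, for miR-200c-3p. All 14 members entered the fit, and their median log2 fold change was -0.03 against 0.18 for all names. Because all names together moved by 0.18, a change of -0.70 on the deposited values lies 0.88 below the median name for miR-192, and one of 1.04 lies 0.86 above it for miR-200b-3p. With TMM scaling the median of all names was -0.01 and that of the members was -0.23.

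On the deposited values 3 members were higher in both old libraries than in both young ones, namely miR-200b-3p, miR-200c-3p and miR-429, and 28.3% of all names tested were. The 3 miR-194 names miR-194a, miR-194-5p and miR-194b-5p were lower in both, against 16.1% of all names. In RPM 2 members were higher, miR-200b-3p and miR-429, against 27.0% of all names, and 6 were lower, miR-192, miR-215, miR-192-3p and the 3 miR-194 names, against 23.0%. The share of the 14 that was higher was below that of all names on either scale, and the share that was lower was above it, by less on the deposited values than in RPM. miR-192 and miR-194a come from adjacent hairpins, and miR-194-5p repeats a name, so these members are not independent of each other.

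**Figure D3:**
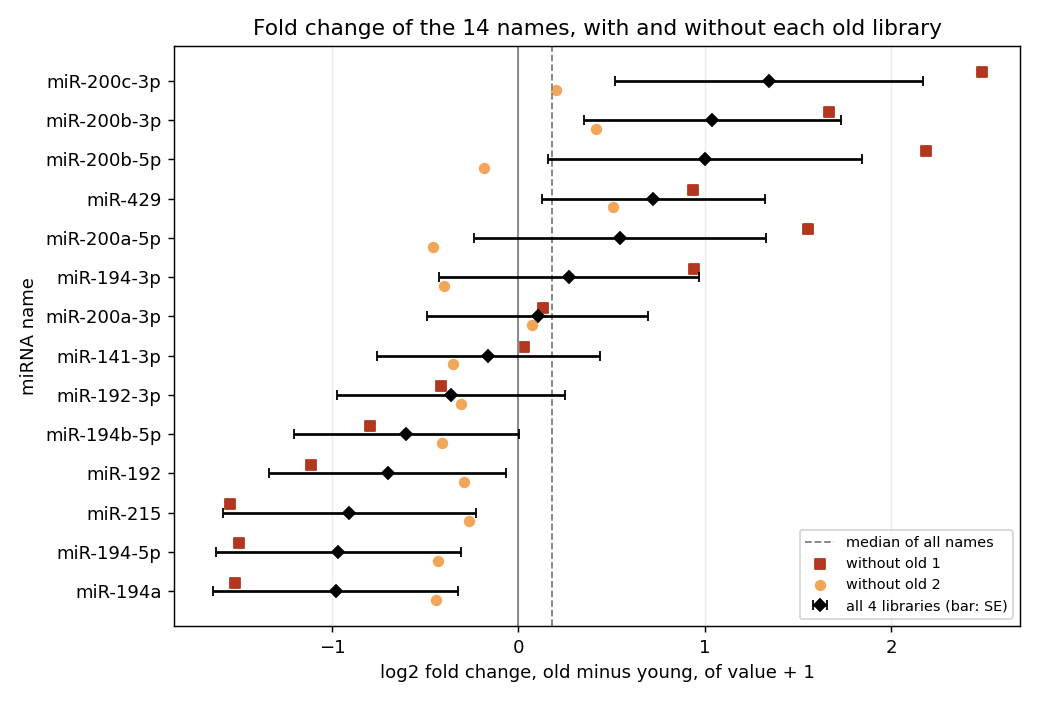
Log2 fold change, old minus young, of each of the 14 names on the log2(value + 1) scale; diamonds are the limma estimate from all 4 libraries with its SE, squares leave out OL1 and circles leave out OL2, and the dashed line is the median of all names (0.18). The 2 old libraries give the same sign for the abundant strands of miR-192, miR-194 and miR-215 and for miR-200b-3p, miR-200c-3p and miR-429, with the larger change in OL2.

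The 2 old small RNA libraries differed from each other more than the young ones did for most members in RPM. Of the 314 names with a mean deposited value of at least 100, 15.9% stood at 2 times the young mean or more in OL2 and 15.6% at 0.5 times or less. Of the 11 members in that set, 2 were among the former, miR-200c-3p and miR-200b-3p, and 4 among the latter, miR-192, miR-215, miR-194a and miR-194-5p. Ranked from the highest ratio, miR-200c-3p was number 5 and miR-200b-3p number 21 of the 314, and miR-215 and miR-194a were numbers 297 and 296. In OL1, 13.4% of the names stood at 2 times or more and 5.73% at 0.5 times or less, and no member was among them. OL1 stood on the same side of the young mean as OL2 for 9 of the 11, at 0.767 of it for miR-192, 0.692 for miR-194a and 1.33 for miR-429. The others were miR-194-3p, at 0.712 in OL1 and 1.80 in OL2, and miR-200a-3p, at 0.986 and 1.02. Without OL2 the log2 fold changes were -0.29 for miR-192, -0.27 for miR-215, -0.44 for miR-194a, -0.43 for miR-194-5p, -0.41 for miR-194b-5p, -0.31 for miR-192-3p and -0.35 for miR-141-3p. They were 0.42 for miR-200b-3p, 0.51 for miR-429 and 0.075 for miR-200a-3p, and -0.18 for miR-200b-5p and -0.46 for miR-200a-5p. Without OL1 they were -1.11 for miR-192, -1.55 for miR-215, -1.52 for miR-194a and 1.67 for miR-200b-3p, each farther from 0 than without OL2.

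Ratios between members of 1 library do not depend on its scaling. In the RefSeq annotation of Sscrofa11.1 the hairpins MIR194A and MIR192 are adjacent, between ATG2A and EHD1, and MIR215 and MIR194B are adjacent, between IARS2 and RAB3GAP2. MIR429 lies beside TTLL10. The ratio of miR-194a to miR-192, from the first of these pairs, was 1.37 and 1.38 in YL, 1.24 in OL1 and 1.03 in OL2. It was lower in both old livers by more than its spread between the young ones, and the mean log2 ratio differed by -0.28. The ratio of miR-194b-5p to miR-215, from the second pair, was 0.494 and 0.482 in YL, 0.441 in OL1 and 0.822 in OL2, which overlapped. The names of a pair thus did not keep 1 ratio in the old livers.

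Within the miR-200 family, the ratio of miR-200b-3p to miR-200a-3p was 1.64 and 1.35 in YL, 1.89 in OL1 and 4.32 in OL2. The ratio of miR-200c-3p to miR-141-3p was 4.63 and 5.13 in YL, 7.18 in OL1 and 26.9 in OL2. In both clusters the member with the miR-200b seed was higher relative to the member with the miR-200a seed in both old livers, by 0.94 and 1.51 on the log2 scale. Without OL2 these differences were 0.34 and 0.56. For the second cluster the rise in OL1 was small against counting error, as miR-141-3p rested on 56 to 73 reads. The 95% Wilson interval of the miR-200c-3p share of the 2 names was 79.9% to 86.9% in YL2 and 84.5% to 90.5% in OL1, which overlapped. The ratio of miR-200b-3p to miR-429, which share a seed, overlapped at 21.5 and 17.0 in YL and 17.9 and 31.6 in OL. Each of the 3 ratios that did not overlap gave p = 0.333 in the exact permutation test, again the smallest possible.

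The balance between the strands of a hairpin moved mainly in OL2. miR-194-3p made up 0.258% and 0.237% of miR-194-3p and miR-194a together in YL, 0.255% in OL1 and 1.35% in OL2 (95% Wilson interval 1.30% to 1.41%). OL1 was between the young livers, and OL2 was 5.52 times the young mean ratio. miR-192-3p made up 1.07% and 0.978% of its hairpin's reads in YL, 1.01% in OL1 and 1.65% in OL2. For miR-200a-5p the shares were 0.706%, 0.683%, 0.471% and 1.91% in the same order, and for miR-200b-5p 0.860%, 1.07%, 0.634% and 1.40%. All 4 minor strands therefore had their highest share in OL2, although the intervals of YL2 and OL2 overlapped for miR-200b-5p. Among 86 other hairpins with both strands listed and at least 10 reads of the minor strand in every library, the median ratio in OL2 was 0.839 times the young mean, and 37 of the 86 were above the young mean. None of the 86 reached the 5.52 times of miR-194-3p, the highest being 5.07 times for miR-130b-5p, while 7 reached the 2.78 times of miR-200a-5p and 20 the 1.62 times of miR-192-3p. miR-194-3p may come from either miR-194 hairpin, so its ratio to miR-194a alone is an approximation.

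**Figure D4:**
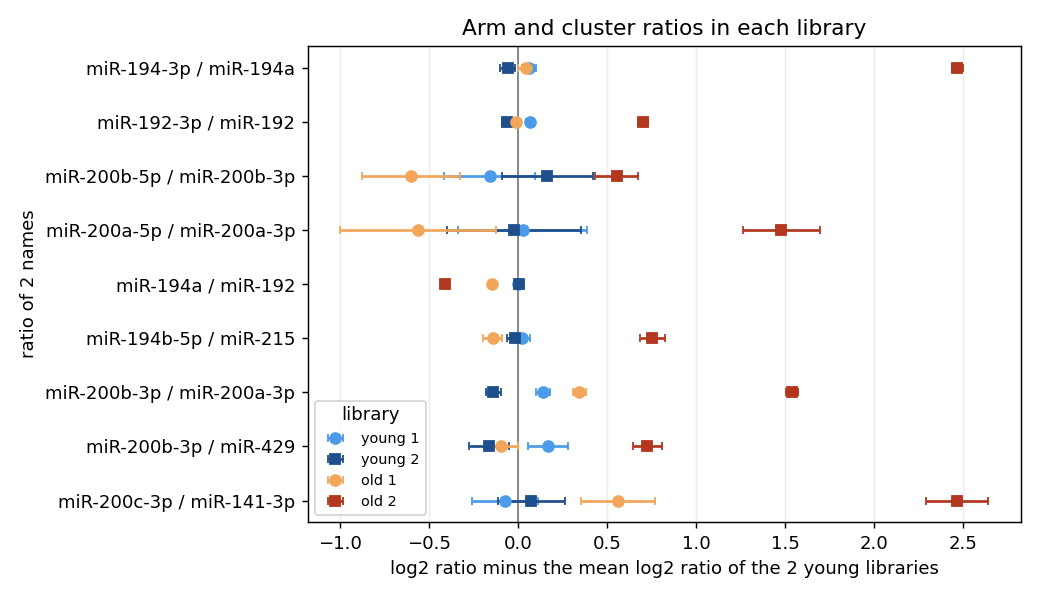
Log2 ratio of 2 names in each library, minus the mean log2 ratio of the 2 young libraries, for 4 strand ratios (top) and 5 cluster ratios (bottom); points are single libraries and bars are the SE from counting alone. OL2 stands farthest from the young libraries in most ratios, and OL1 moves with it for miR-194a over miR-192, miR-200b-3p over miR-200a-3p and miR-200c-3p over miR-141-3p. The last of these rests on 56 to 73 reads of miR-141-3p per library.

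The mRNAs around the miR-200 family were examined in the RNA-seq libraries of the same 2 ages, in CPM, here the reads of a gene times 1 factor per library without regard to gene length. Of 28 genes listed as targets, regulators or epithelial partners of the family, 20 had a matched identifier and 19 were tested. None was called by limma, nor was any of the 16898 identifiers tested (0%), of which 15.7% had an unadjusted p under 0.05 against 6 of these 19 genes, 4 higher and 2 lower. The median log2 fold change of the 19 was -0.13, against -0.02 for all identifiers. edgeR's exact test on the recovered reads called 3.16% of all identifiers and 2 of the 19 genes, CLDN4 and ZFPM2, both higher in old liver.

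CLDN4, a tight junction claudin of ducts and other epithelia, gave 12.4 and 15.0 CPM in YL and 65.7 and 50.5 CPM in OL. The groups were far apart, with a limma log2 fold change of 2.001 ± 0.21 on log2(CPM + 1) and an adjusted p of 0.213. That was the lowest adjusted p in the limma fit, but ELF3 shared it, so it does not single out CLDN4. In edgeR's exact test the adjusted p of CLDN4 was 0.00356. ZFPM2, a GATA cofactor known as a miR-200 target, gave 0.381 and 0.116 CPM in YL and 4.18 and 8.17 CPM in OL, with a limma log2 fold change of 2.47 ± 0.36 and an adjusted p of 0.213, against 0.000106 in edgeR's exact test. Some other targets on the list were lower in both old livers without being called, while KDR, QKI, JAG1 and FN1, also listed, overlapped between ages. Of the 20 genes with an identifier, 5 were lower and 4 higher in both old livers. The share of all identifiers with such an order was not computed, so these counts cannot be read as a result about the list. SUZ12, a Polycomb subunit, gave 2.68 and 2.58 CPM in YL and 1.495 and 1.28 CPM in OL, and CFL2, an actin-severing cofilin, gave 1.64 and 1.90 CPM in YL and 0.520 and 0.919 CPM in OL, with log2 fold changes of -0.60 ± 0.12 and -0.70 ± 0.18 and limma adjusted p of 0.230 and 0.264. BMI1, another Polycomb subunit, gave 3.84 and 2.44 CPM in YL and 2.21 and 2.10 CPM in OL, with a log2 fold change of -0.37 ± 0.22. The remaining genes with an unadjusted p under 0.05, CLDN7 and ST14, were higher, with limma log2 fold changes of 0.93 ± 0.19 and 0.36 ± 0.11. CLDN7 gave 0.762 and 1.21 CPM in YL and 2.50 and 3.06 CPM in OL. ST14 rested on 1 and 0 reads in YL and 20 and 19 reads in OL. At such low levels the added 1 shrinks the fold change, and edgeR's exact test gave 1.69 for CLDN7 and 5.56 for ST14, neither called.

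The central genes of the family gave no such separation. ZEB1, the repressor that miR-200 targets, gave 3.51 and 3.06 CPM in YL and 2.02 and 3.09 CPM in OL, overlapping, with a log2 fold change of -0.28 ± 0.21. CDH1, which encodes E-cadherin and is repressed by ZEB1, gave 31.2 and 28.3 CPM in YL, 30.2 in OL1 and 53.2 in OL2. It was high in OL2 alone, the sow whose small RNA library held the most miR-200b-3p, if the replicate numbers of the 2 kinds of library mark the same sow. VIM, the mesenchymal filament vimentin, overlapped at 12.1 and 17.9 CPM in YL and 8.91 and 24.3 CPM in OL. VIM was thus also highest in OL2, as was FN1, at 131 and 162 CPM in YL and 81.7 and 201 CPM in OL. The high value in OL2 was therefore not particular to CDH1. CDH2, which encodes N-cadherin and is a known miR-194 target, gave 26.04 and 35.8 CPM in YL and 6.18 and 19.4 CPM in OL. Its old values were both lower, with a log2 fold change of -1.38 ± 0.63 and a limma adjusted p of 0.418. EPCAM, an epithelial adhesion molecule of bile ducts, stayed at or below 0.523 CPM in every library, and the splicing factor ESRP1 at or below 0.153 CPM. ZEB2, ESRP2, KRT7 and KRT19 had no matched identifier.

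Of 16 genes listed as regulators or targets of miR-192, miR-194 and miR-215, 12 were tested, none was called and none had an unadjusted p under 0.05, and their median log2 fold change was -0.02. HNF4A, the nuclear factor of hepatocyte identity, overlapped at 59.0 and 22.1 CPM in YL and 43.0 and 30.4 CPM in OL.

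**Figure D5:**
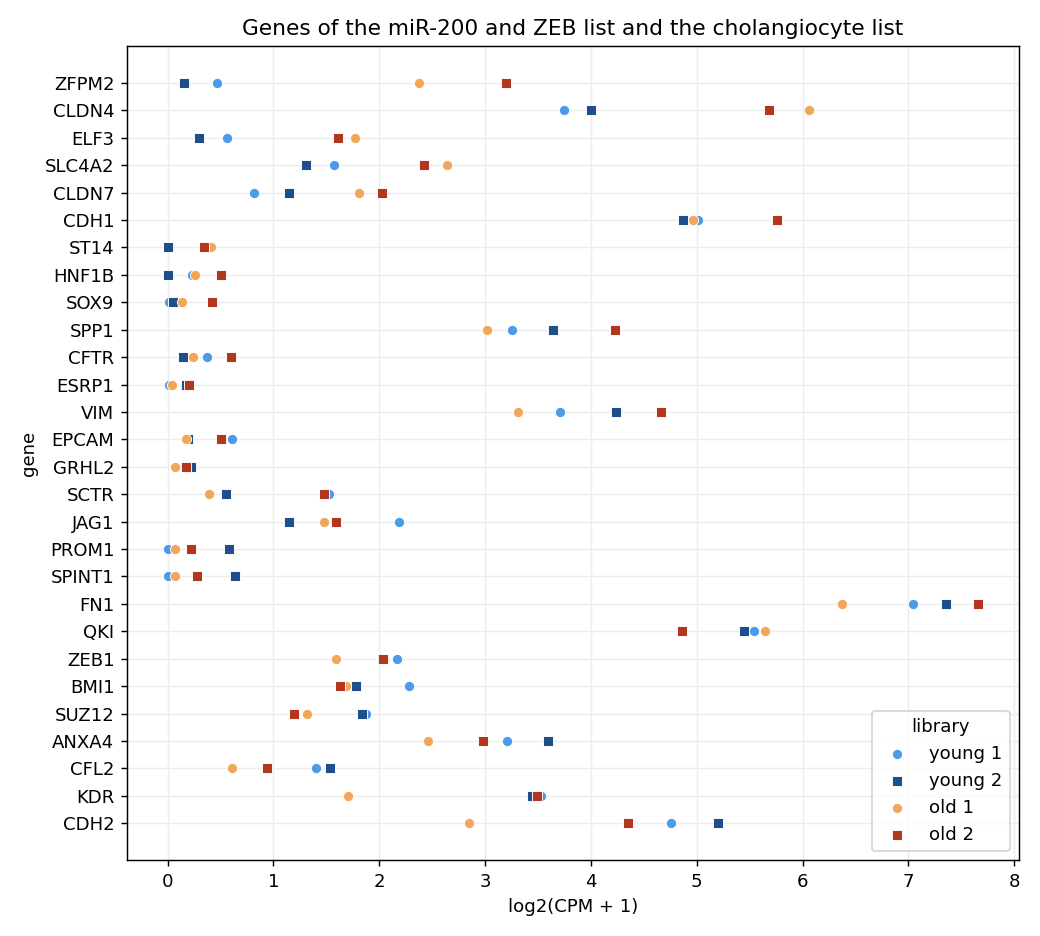
Log2(CPM + 1) of the tested genes of the miR-200 and ZEB list and of the cholangiocyte list (vertical axis, ordered by limma fold change) in each of the 4 RNA-seq libraries; points are single libraries. CLDN4, ZFPM2, ELF3, SLC4A2 and CLDN7 have both old libraries above both young ones, and ZEB1, VIM and EPCAM overlap.

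Markers of the cells that could carry these miRNAs moved as follows. The cholangiocyte list, of which 11 of 14 genes were tested, summed to 34.5 and 40.5 CPM in YL and to 85.9 and 85.0 CPM in OL. CLDN4 made up most of that difference, and without it the sum overlapped, at 22.1 and 25.5 CPM in YL and 20.2 and 34.6 CPM in OL. Of the 11 genes, 7 had a positive and 4 a negative log2 fold change, and 3 had an unadjusted p under 0.05 in limma (15.7% of all identifiers did), CLDN4, ELF3 and SLC4A2, all higher. edgeR's exact test, which called 3.16% of all identifiers, called CLDN4 and ELF3. ELF3, an epithelial transcription factor, gave 0.479 and 0.231 CPM in YL and 2.41 and 2.06 CPM in OL, with an adjusted p of 0.0279 in edgeR's exact test and 0.213 in limma. ANXA4, an annexin of ductal cells, went the other way, at 8.23 and 11.07 CPM in YL and 4.52 and 6.86 CPM in OL, with a limma adjusted p of 0.378. The defining marker EPCAM was near 0 and SOX9 was at most 0.334 CPM. The hepatocyte list, with 11 of 12 genes tested, summed to 87604 and 96834 CPM in YL and to 61427 and 65753 CPM in OL, and ALB alone gave 29468 and 35205 CPM against 16534 and 23978 CPM. miR-122, the dominant hepatocyte miRNA, showed no such order, with 360482 and 342430 RPM over both its strands in YL and 341339 and 396809 in OL. Genes of intestine and gallbladder epithelium, where miR-192, miR-194 and miR-215 are also high, summed to at most 8.35 CPM in any library. Other epithelial miRNAs (miR-31, miR-96, miR-182, miR-183, miR-203, miR-205 and miR-375) summed to 772 and 629 RPM in YL and to 1060 and 494 in OL, which overlapped. miR-203a-3p carried that sum, at 650 and 475 RPM in YL and 928 and 324 in OL. Of the 11 names in it, 3 were higher and 0 lower in both old livers in RPM, against 27.0% and 23.0% of all names. The part of these cell types in the miRNA differences was not tested.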

How the data were processed

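The miRNA signal values were made by the authors with mirdeep2 against miRBase 21, and are named TPM although their sums differ between libraries, so the total they were scaled to is not known. The mRNA values were made by the authors from clean reads aligned to Sscrofa10.2 and named TPM. They are called CPM here because the deposited values were whole reads times 1 step per library, whatever the gene, and they sum to between 346173 and 428910 over mRNAs. Per the submitters' processing notes, TopHat2 2.0.14, StringTie 1.2.3 and Salmon 0.6.0 were used. Every deposited value above 0 was a whole multiple of 1 step per library (tolerance 0.05 reads), which gave back whole reads. Deposited lncRNA and circRNA tables were not used here, and no column of the tables used was left out.

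The members and gene lists were chosen with earlier results of these data known. Log2(value + 1) was tested with limma 3.58.1 (R 4.3.3) over every feature with a value above 0 in 2 libraries or more, p-values were adjusted by Benjamini and Hochberg's method, and a call needed an adjusted p under 0.05 and an absolute log2 fold change above 1. edgeR 4.0.16 and DESeq2 1.42.0 on recovered reads, other scalings, pseudocounts (0.5, 10), filters and left-out libraries were alternatives. The main limma fit, both edgeR tests and DESeq2 were tested on simulated data, and the other alternatives were not. A pair of strand names whose log2 ratio stayed within 0.05 was left out of the strand comparison as a repeat (1 pair). RPM values used names counted once, and repeats were sought only between a name without the pig prefix and one with it, at 200 reads or more per library. Of 21607 mRNA identifiers, 11654 had a symbol. Members with a mean deposited value of at least 100, key genes of the pathway lists and list genes called by edgeR's exact test are named with values (1 listed gene is not reported here), and CLDN7, ST14, SUZ12, CFL2, BMI1, ANXA4, SLC4A2, SOX9, ALB and miR-130b-5p were named after their values were seen. Python 3.11.15 with scipy 1.17.1 was used for permutation tests.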

Additional observations from a re-analysis of the deposited data

How the results depend on the processing

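With 2 sows per group no exact permutation test could reach 0.05. No member was called in the 16 alternative fits, and the lowest adjusted p of a member was 0.0707, in limma for miR-200c-3p without old replicate 1. Of 224 refitted log2 fold changes of members, 211 kept their sign and 13 did not. miR-200a-3p was -0.10 with TMM scaling and in both edgeR tests, -0.058 with median-ratio scaling and -0.057 in DESeq2. Leaving out 1 library gave ranges of -0.15 to 0.36 for miR-200a-3p, -0.18 to 2.19 for miR-200b-5p, -0.46 to 1.55 for miR-200a-5p, -0.40 to 0.94 for miR-194-3p, -0.75 to 0.034 for miR-192-3p and -0.41 to 0.091 for miR-141-3p, and in each case the cause was not tested.

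The number of names called, 0 in the main limma fit, was 16 with a mean value of at least 10 (556 names tested), 7 with a mean-variance trend, 26 in edgeR's exact test, 43 in DESeq2 and from 0 to 36 when 1 library was left out, with 22 without old replicate 1 and 36 without old replicate 2, where the lone old library is assumed to vary like the young ones. The miR-200 and ZEB list had 2 genes called in edgeR's exact test and 2 in DESeq2, which called 5.21% of all identifiers. Members lower in both old libraries numbered 8 of 14 with TMM (28.03% of all names), 7 with median-ratio scaling (27.1%), 6 in RPM (reads per library total, a scaling chosen after seeing the data) and from 3 to 8 when 1 library was left out (18.2% to 39.6% of all names), and members higher numbered from 3 to 6 (31.6% to 49.7%). The highest of these counts came without young replicate 2 for the lower members and without old replicate 1 for the higher ones, where 1 library makes overlap rarer.

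Replicate numbers did not pair the sows, since the deviations of libraries with the same number correlated at -0.016. With the replicate block, 0 members and 0 names were called, 89 names had an unadjusted p under 0.05 against 103 without it, and the members' median log2 fold change was -0.03.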

Other observations

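The names whose values over the 4 libraries lay closest to those of the miR-192 and miR-215 sum, among 303 other names with a mean deposited value of at least 100, were ssc-miR-30a-5p and ssc-miR-186, at Euclidean distances of 0.0355 and 0.0413 between centred log2 values. ssc-miR-30a-5p gave 10964 and 11760 RPM in YL, 8635 in OL1 and 4770 in OL2, and ssc-miR-186 gave 1912, 2028, 1548 and 879 in the same order. The third was miR-574-5p on the deposited values and miR-101-5p in RPM. Closest to the miR-200 family sum were let-7c-5p (distance 0.0942), miR-193b-5p and ssc-miR-10b. let-7c-5p gave 4259 and 4831 RPM in YL, 5197 in OL1 and 10088 in OL2. These are descriptions over 4 libraries that share their scaling, chosen for their likeness.

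Among miRNAs of other cell types, the muscle list summed to 190 and 174 RPM in YL and to 518 and 960 in OL, with miR-1-3p at 33.2, 26.9, 226 and 489 RPM in YL1, YL2, OL1 and OL2 and ssc-miR-206 at 0.314, 0.506, 7.59 and 28.1. ssc-miR-1, at 16.7, 13.6, 116 and 250.1, kept a nearly constant ratio to miR-1-3p, so the sum counts that miRNA under both names. Neither miR-1-3p nor ssc-miR-206 was called in limma (adjusted p = 0.125 and 0.0980), and both were chosen after their values were seen. Endothelial miR-126 summed to 9847, 8487, 17890 and 8996, and the leukocyte list to 2177, 2805, 5320 and 2709, in the order YL1, YL2, OL1 and OL2. In that order the stromal list summed to 59937, 72522, 73426 and 58471, and the erythroid list to 4192, 3116, 3166 and 1767. Within the stromal sum ssc-miR-199a-3p and ssc-miR-199b-3p kept a nearly constant ratio, so it may count the same reads under both names. The endothelial and leukocyte sums were highest in OL1. miR-223-3p carried the leukocyte sum, and the leukocyte miR-150-5p was highest in OL2, at 71.0, 117, 295 and 396 RPM. In the RNA-seq libraries the summed CPM, in the same order, was 232, 254, 340 and 375 for macrophage genes (5 of 7 listed had an identifier). It was 4.95, 6.41, 14.8 and 7.62 for T and NK cell genes (3 of 5). Endothelial genes (3 of 7) gave 30.0, 26.8, 62.6 and 31.5. Stellate cell and fibroblast genes (7 of 8) gave 20.0, 40.2, 22.7 and 62.0, and erythroid genes (3 of 5) gave 622, 429.3, 306 and 405. B cell (2 of 4), pancreas (2 of 4) and skeletal muscle genes stayed below 1 in every library. Only 1 of the 5 listed skeletal muscle genes, ACTA1, had an identifier, so muscle transcripts were hardly covered. On the stellate cell and fibroblast list, TAGLN gave 2.49, 3.78, 9.80 and 13.7 CPM and was higher in edgeR's exact test (adjusted p = 0.0282) but not called in limma (adjusted p = 0.218). It was the only gene of the 7 tested on that list that the exact test called, and that test called 3.16% of all identifiers. Of the 7, 4 had a positive and 3 a negative log2 fold change.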
